A study of Mus musculus with 10 samples.

Results

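Chemokines and their receptors were examined in mouse dorsal root ganglia (DRG) 24 h after sciatic nerve axotomy. The 61 members are the protein-coding genes whose symbols name a CC, CXC, CX3C or XC chemokine, a chemokine receptor or an atypical chemokine receptor (Ccl, Cxcl, Ccr, Cxcr and Ackr genes with a number, with Cx3cl1, Cx3cr1, Xcl1, Xcr1 and Ccrl2). They were taken from the 54,309 genes of the annotation by symbol, and the naming rule itself uses no measured value. The members and the gene lists below were nevertheless chosen with earlier results of these data known. They comprise 38 ligands and 23 receptors, of which 18 signal through G proteins and 5 are atypical. Reads were sufficient to test 45 of the 61 members among 20,836 genes tested in all.

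Male and female C57BL/6 mice aged 6 to 8 weeks had the left sciatic nerve cut across its full width at mid-thigh, or had it exposed and left whole (sham). The ganglia at lumbar levels L4 and L5 on the operated side were taken for poly-A RNA-seq, and each library pooled the ganglia of 2 mice. Male axotomy and female axotomy had 3 libraries each, and male sham and female sham had 2 libraries each. Sham surgery itself opened skin and muscle, so axotomy is set against a wounded control and not against an intact animal.

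Chemokines are small secreted proteins that direct the movement of leukocytes along a gradient. They act through membrane receptors that couple to inhibitory G proteins, whereas atypical receptors bind chemokines without G protein signaling and take them up, transport them or display them. After a nerve is cut, neurons, satellite glia, resident macrophages, fibroblasts and endothelium of the ganglion are all possible sources, and circulating monocytes, neutrophils and lymphocytes are the cells that typically follow the gradient.

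The libraries held 55,258,476 to 90,111,671 estimated read pairs, with the deepest being male axotomy 2. Labelled sex and injury matched the data: Xist stood at most at 0.473 TPM in male libraries against 59.1 to 78.3 TPM in female libraries, and the injury-induced transcription factor Atf3 at 265 to 527 TPM in axotomy against 71.4 to 116 TPM in sham libraries. Sensory neuron markers (7 genes) summed to 7180 to 8940 TPM in male axotomy and 9560 to 10003 TPM in male sham libraries, and to 8080 to 8260 TPM in female axotomy and 8910 to 9480 TPM in female sham libraries. Male axotomy 2 stood apart from male axotomy 1 and 3 in most marker lists. Among the 3 libraries it had the lowest macrophage (121 TPM), mast cell (22.4 TPM) and fibroblast (706 TPM) sums and the highest sensory neuron sum (8940 TPM). Female axotomy 1 had the highest sum of neutrophil markers (491 TPM, against 120 to 253 TPM in the other libraries). Skeletal muscle markers summed to 90.0 TPM in female axotomy 2, against 2.92 to 19.8 TPM elsewhere. In whole ganglia, fewer cells of a type and less RNA per cell cannot be told apart.

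Promoter sequences are shown first for 4 ligand genes that the results turn on, namely Ccl12 and Ccl19, the ligands upregulated in both sexes under every alternative tried, Cxcl14, upregulated in both sexes, and Ccl9, with one of the largest male changes. They are RefSeq promoters of build GRCm38.p6, running from 250 bases before to 50 bases after the gene start. The quantified annotation uses build GRCm39, so these coordinates apply to the printed sequence only. Capitals mark matches on either strand to a motif of NF-kB (GGG and CC with any 5 bases between them), AP-1 (TGANTCA), STAT factors (TTCNNNGAA) or interferon regulatory factors (GAAA and GAAA with any 2 bases between them), which may overlap.
Ccl12, chr11:82101595-82101894, plus strand: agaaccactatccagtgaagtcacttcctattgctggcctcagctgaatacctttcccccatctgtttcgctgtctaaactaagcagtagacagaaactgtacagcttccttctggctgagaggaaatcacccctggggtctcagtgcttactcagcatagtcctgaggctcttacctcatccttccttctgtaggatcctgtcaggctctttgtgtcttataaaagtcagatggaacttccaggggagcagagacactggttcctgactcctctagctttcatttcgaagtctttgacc
Ccl19, chr4:42756316-42756615, minus strand: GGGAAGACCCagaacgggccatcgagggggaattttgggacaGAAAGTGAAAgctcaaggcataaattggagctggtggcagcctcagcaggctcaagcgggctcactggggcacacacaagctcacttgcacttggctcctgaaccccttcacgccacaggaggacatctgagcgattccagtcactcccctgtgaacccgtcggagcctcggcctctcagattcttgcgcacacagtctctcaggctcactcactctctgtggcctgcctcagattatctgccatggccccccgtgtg
Cxcl14, chr13:56296502-56296801, minus strand: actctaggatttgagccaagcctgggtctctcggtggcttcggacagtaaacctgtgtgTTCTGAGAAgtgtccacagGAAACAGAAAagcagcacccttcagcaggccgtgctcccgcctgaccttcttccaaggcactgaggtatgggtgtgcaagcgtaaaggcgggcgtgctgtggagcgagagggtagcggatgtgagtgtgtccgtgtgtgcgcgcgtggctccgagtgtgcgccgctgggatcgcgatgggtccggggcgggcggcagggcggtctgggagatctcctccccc
Ccl9, chr11:83578587-83578886, minus strand: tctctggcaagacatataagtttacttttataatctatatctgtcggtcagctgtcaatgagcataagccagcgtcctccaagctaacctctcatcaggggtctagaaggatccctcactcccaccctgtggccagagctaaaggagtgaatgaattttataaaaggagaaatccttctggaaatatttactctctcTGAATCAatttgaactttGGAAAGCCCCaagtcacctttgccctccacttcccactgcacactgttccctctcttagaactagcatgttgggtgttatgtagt

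The Ccl12 window held no match to these letters. The Ccl19 window held an NF-kB-like match at bases 1 to 10 and an interferon-type match at bases 43 to 52, counted from its 5′ end. In the Cxcl14 window a STAT match at bases 60 to 68 was followed by an interferon-type match at bases 79 to 88, and in the Ccl9 window an AP-1 match at bases 198 to 204 was followed by an NF-kB-like match at bases 216 to 225. Promoters were found for 46 of the 61 members, 52 promoters in all. The NF-kB-like letters occurred in 28 of these 52 promoters (53.8%), against 50.8% of all 32,851 promoters, and the AP-1 letters in 7 (13.5%), against 7.81%. STAT letters occurred in 3 (5.77%), against 8.3%, and the interferon-type letters in 3 (5.77%), against 3.44%. These are matches of letters and not bound sites.

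Levels were read as TPM, the share of a gene's transcripts among all transcripts of a library, which is scaled for transcript length and allows genes to be compared. Between 51 and 55 members had reads in each library. Summed over all members, the level was 521, 457 and 465 TPM in male axotomy and 397 and 424 TPM in male sham libraries, and 432, 440 and 416 TPM in female axotomy and 400 and 394 TPM in female sham libraries. Axotomy sums lay above sham sums in males, and in females the lowest axotomy sum exceeded the highest sham sum by less than the range of the axotomy libraries. Most of this sum came from 2 genes, Ackr1 (mean 157 TPM over the 10 libraries) and Ccl27a (91.7 TPM). Among ligands, Ccl27a was followed by Ccl11 (23.2 TPM), Cxcl12 (20.3 TPM), Ccl12 (16.6 TPM) and Ccl21d (13.5 TPM), and among receptors Ackr1 was followed by Cxcr4 (17.01 TPM), Ackr3 (5.19 TPM), Ccr2 (4.14 TPM) and Cx3cr1 (2.27 TPM). This order is that of the mean over all libraries and differs between groups. Ccl11 averaged above Cxcl12 in male axotomy (36.9 against 21.6 TPM) and below it in the other 3 groups, Ccl12 averaged below Ccl21d in both sham groups, and Cxcr2 averaged above Cx3cr1 in female axotomy.

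Exons of several members overlap other genes, which bears on how their reads are assigned. Exons of Ackr1 overlap exons of Cadm3 on the same strand, and exons of Ccl27a overlap those of Il11ra1 on the opposite strand, as do those of Ccl25 with Elavl1, Cxcl16 with Zmynd15 and Cxcl10 with Art3 (Gencode M21). The kit keeps strand, but the sources used here do not give the strand setting of the quantification. Ccl21a, Ccl21b and Ccl21d are near-identical copies, between which reads are divided by estimation, so their separate levels are uncertain.

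**Figure D1:**
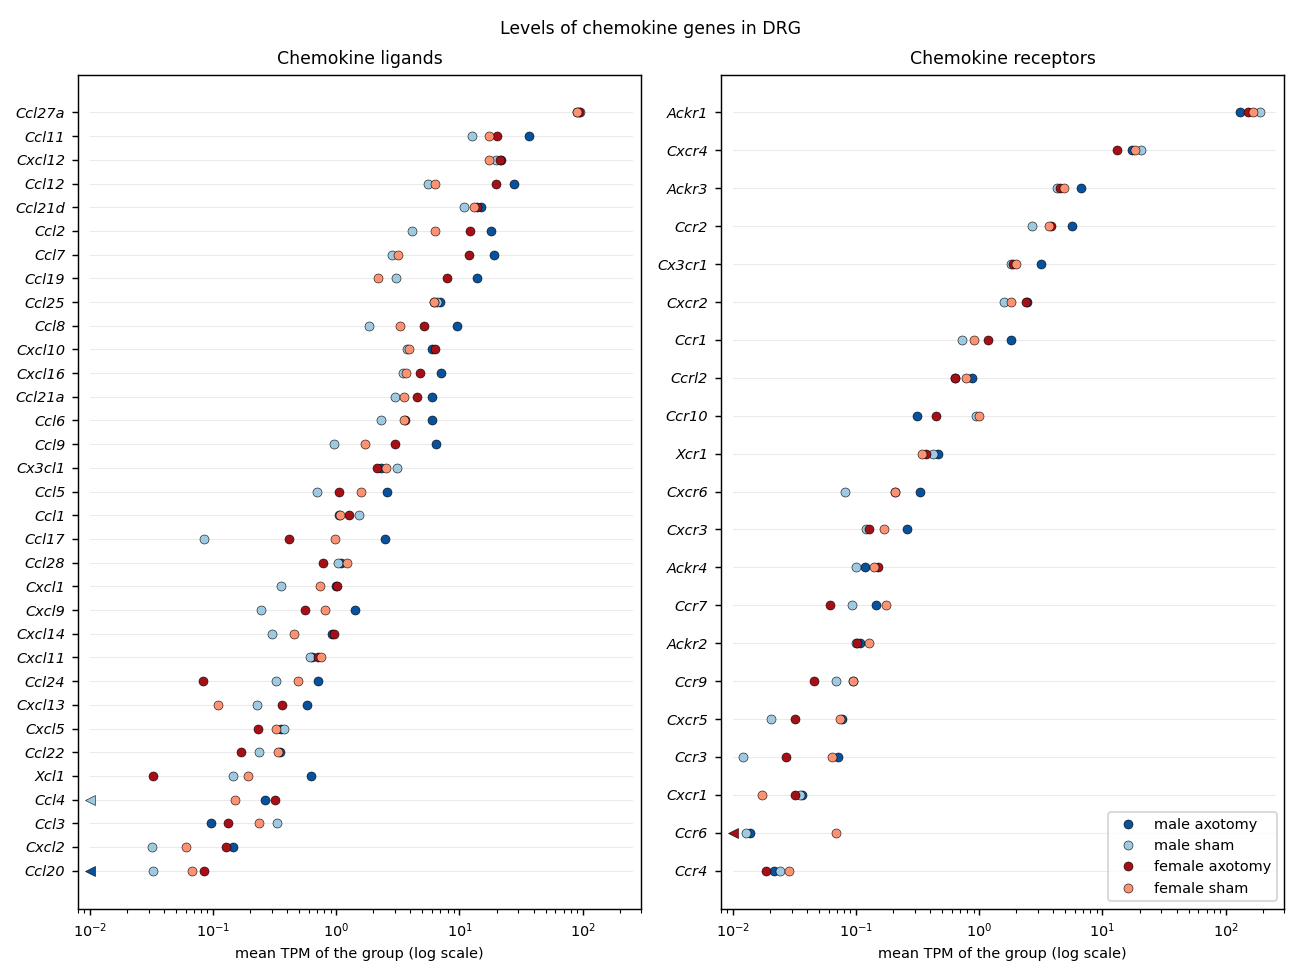
Mean TPM of each group (log axis) for the chemokine ligands and receptors with a mean over the 10 libraries of at least 0.01 TPM; points are group means and triangles mark means below 0.01 TPM. Ccl27a leads the ligands and Ackr1 the receptors, with means over all libraries of 91.7 and 157 TPM.

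The other 16 members had too few reads to test. Ccl21b, Ccl26 and Cxcl17 had no read in any library, where 3 counts correspond to 0.0333 to 0.0543 CPM (counts scaled to library size), which covers counting error only. Ccr8, Cxcl3, Cxcl15, Ccr6, Ccl20 and Cxcr1 had 1 to 10 estimated counts over all 10 libraries, and Ccr4, Ccl4, Ccl3, Xcl1, Cxcl2, Ccr3 and Cxcr5 had 21.3 to 56. Of the 45 members tested, 40 reached the filter level (0.157 CPM) in at least 2 sham libraries, and Ccl24, Cxcl13, Ccl17, Cxcr6 and Cxcr3 did not, so their passing rested on axotomy libraries.

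Axotomy was compared with sham within each sex by edgeR, with log2FC as axotomy over sham and a call at padj under 0.1, the threshold of the study. In males 27 of the 45 members tested were upregulated and 2 downregulated, where 22.6% of all genes tested were upregulated and 19.4% downregulated. The 27 include Ccl17, Cxcl13, Cxcr3 and Cxcr6, whose passing the filter rested on axotomy libraries. In females 7 were upregulated and 3 downregulated, where 10.5% of all genes were upregulated and 9.7% downregulated. The 7 genes upregulated in females were all among the 27 upregulated in males, and included the ligands Ccl2, Ccl7, Ccl12, Ccl19, Cxcl12 and Cxcl14. Of the 27, 22 had a female log2FC above 0. This count was not made over all genes tested, so it cannot be called particular to chemokine genes. The median log2FC of the 45 members was 1.01 in males and 0.18 in females, and over all genes tested it was 0.04 in males and −0.0005 in females.

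Ligands and receptors were counted apart, to be read beside the shares of all genes tested. These were 22.6% upregulated and 19.4% downregulated in males, and 10.5% and 9.7% in females. The same shares apply to the counts of smaller groups below. Of the 28 ligands tested, 18 were upregulated and none downregulated in males (median log2FC 1.56), and 6 were upregulated and 1 downregulated in females (median log2FC 0.32). Of the 17 receptors tested, 9 were upregulated and 2 downregulated in males (median log2FC 0.82), and 1 was upregulated and 2 downregulated in females (median log2FC 0.02). The female receptor counts are near the shares of all genes. Per library, every male axotomy level lay above every male sham level for 26 of the 45 members, against 17.2% of all genes, and below it for 3, against 41.5%. In females these numbers were 11, against 16.1%, and 7, against 37.3%. The deposited TPM is shifted between the states: the median log2 ratio of mean TPM over tested genes was −0.165 in males and −0.117 in females. Fold changes here therefore come from the edgeR fit and not from ratios of TPM.

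**Figure D2:**
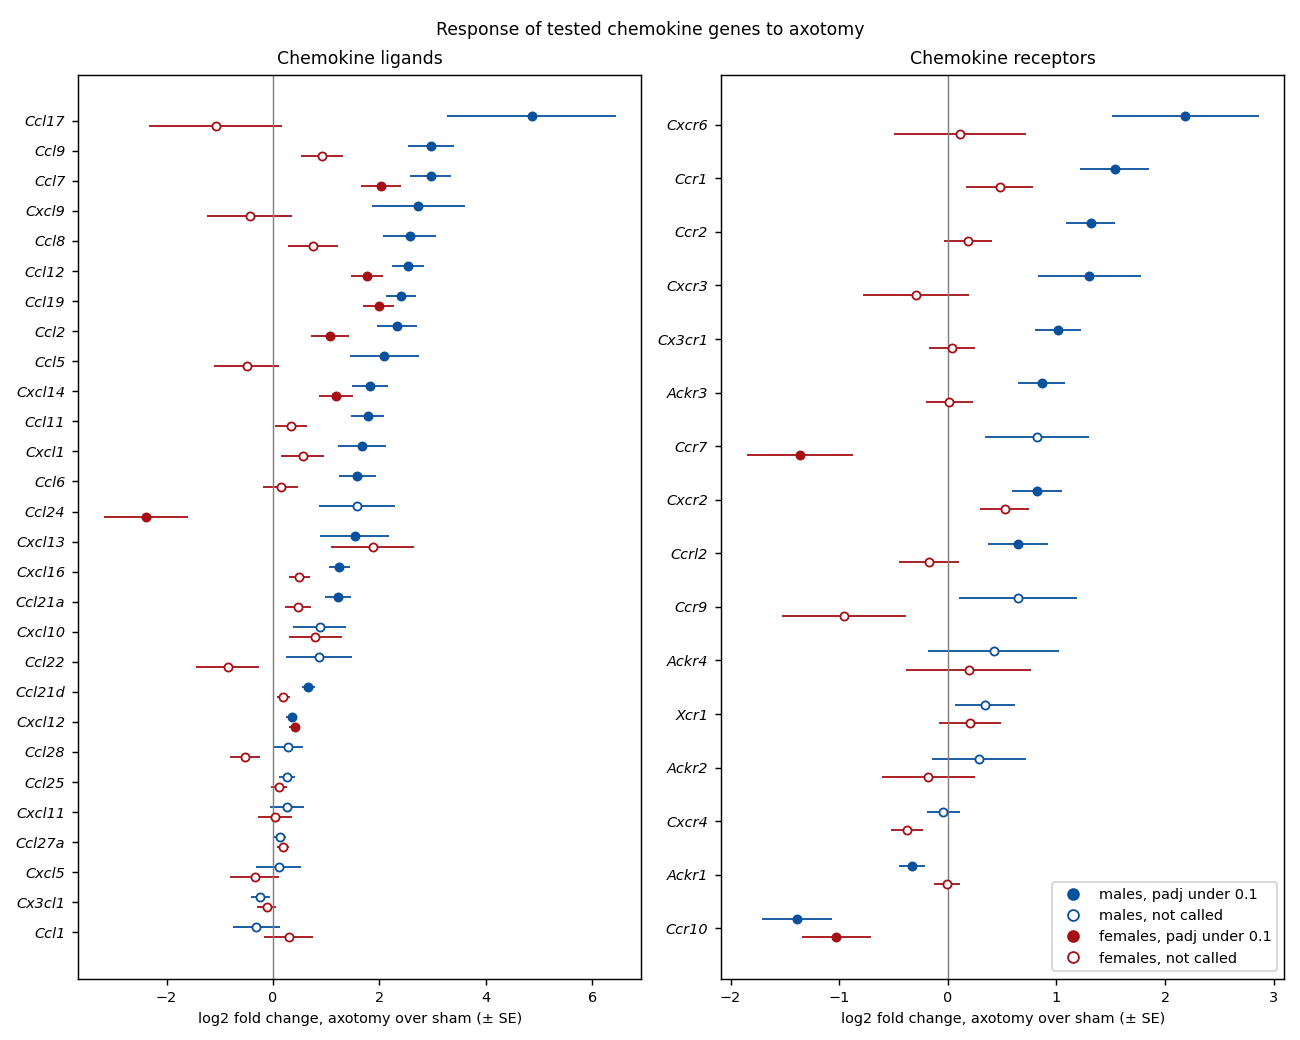
Log2 fold change of axotomy over sham with its standard error for the chemokine genes tested and reported, males in blue and females in red, filled where padj is under 0.1 (edgeR, 3 axotomy and 2 sham libraries per sex). Filled female points to the right of 0 are those of Ccl2, Ccl7, Ccl12, Ccl19, Cxcl12 and Cxcl14, which are filled for males too.

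Markers of cell types were counted in the same way, beside the shares of all genes tested. Those shares were 22.6% upregulated and 19.4% downregulated in males, and 10.5% and 9.7% in females. All 10 macrophage markers were upregulated in males, with sums of 121 to 186 TPM in male axotomy and 60.8 to 62.7 TPM in male sham libraries, and in females 1 was upregulated and 1 downregulated, with 94.1 to 119 TPM in female axotomy and 75.8 to 94.2 TPM in female sham libraries. All 5 mast cell markers (22.4 to 48.9 TPM in male axotomy, 9.75 to 11.9 TPM in male sham) and all 5 fibroblast markers (706 to 1360 TPM in male axotomy, 499 to 528 TPM in male sham) were also upregulated in males. In females none of the mast cell markers was called (12.6 to 15.7 TPM in axotomy, 14.5 to 18.3 TPM in sham), and 2 fibroblast markers were downregulated (553 to 600 TPM in axotomy, 675 to 723 TPM in sham). All 4 Schwann cell markers were upregulated in males (4700 to 5800 TPM in male axotomy, 3510 to 4030 TPM in male sham) and none was called in females (3030 to 4130 TPM in axotomy, 3940 to 5450 TPM in sham). Of 7 sensory neuron markers, 4 were downregulated in each sex and 1 was upregulated in males. Of 3 satellite glia markers, 2 were upregulated in males (1220 to 1390 TPM in male axotomy, 943 to 1120 TPM in male sham), and in females 1 was upregulated and 2 downregulated (752 to 825 TPM in axotomy, 1140 to 1160 TPM in sham). Dendritic cell markers had 4 of 5 upregulated and 1 downregulated in males and 2 upregulated in females, B cell markers 3 of 4 upregulated in males and 1 downregulated in females, and T and NK cell markers 3 of 7 upregulated in males and none called in females. Of 5 monocyte markers, 1 was upregulated in males, and of 4 lymphatic endothelial markers 2 were upregulated and 1 downregulated in males, with none called in females in either list. Of the 8 neutrophil markers, none was called in males and 1 was upregulated in females. The upregulated monocyte count in males, and the upregulated macrophage and neutrophil counts in females, are near the shares of all genes. No list of these cell types was at 0 in any library. The part of these cells in the chemokine changes was not tested.

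The monocyte- and eosinophil-attracting CC ligands had the largest median change of the ligand groups. Of 6 members, all tested, 5 were upregulated in males and 3 in females, with a median log2FC of 2.44 in males and 0.91 in females. Ccl2, the main attractant of inflammatory monocytes, stood at 24.2, 10.4 and 19.2 TPM in male axotomy and 3.78 and 4.496 TPM in male sham libraries. In females it stood at 12.4, 12.7 and 11.5 TPM after axotomy and 7.85 and 4.71 TPM after sham. The groups did not overlap in either sex, and male axotomy 2 was the lowest of the male axotomy libraries, below all 3 female axotomy libraries. Ccl2 rose 5.04-fold in males (log2FC 2.33, SE 0.38, padj = 0.00201) and 2.103-fold in females (log2FC 1.07, SE 0.36, padj = 0.0753).

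Ccl7 is a related monocyte attractant that also binds Ccr2. Its level was 25.9, 11.6 and 19.4 TPM in male axotomy and 2.62 and 3.02 TPM in male sham libraries, and 12.7, 11.7 and 11.3 TPM in female axotomy and 4.07 and 2.25 TPM in female sham libraries. No axotomy library overlapped a sham library of the same sex. The rise was 7.81-fold in males (log2FC 2.97, SE 0.39, padj = 0.000947) and 4.06-fold in females (log2FC 2.02, SE 0.38, padj = 0.00814). Ccl12, a mouse Ccr2 ligand close to Ccl2 in sequence, reached 36.4, 20.0 and 26.4 TPM in male axotomy, against 5.19 and 5.81 TPM in male sham, and 23.6, 18.2 and 17.9 TPM in female axotomy, against 6.94 and 5.75 TPM in female sham libraries. Sham levels of Ccl12 lay within 5.19 and 6.94 TPM in both sexes, and every axotomy library lay above 17 TPM. Ccl12 rose 5.81-fold in males (log2FC 2.54, SE 0.31, padj = 0.000693) and 3.41-fold in females (log2FC 1.77, SE 0.30, padj = 0.0054).

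Ccl8, a ligand of Ccr8 in mouse, and Ccl11 (eotaxin-1), which attracts eosinophils through Ccr3, were upregulated in males. Ccl8 stood at 12.6, 7.67 and 8.24 TPM in male axotomy and 1.89 and 1.79 TPM in male sham libraries, and at 4.89, 7.38 and 3.22 TPM in female axotomy and 4.88 and 1.69 TPM in female sham libraries. The male groups were far apart, whereas female sham 1 matched female axotomy 1 and exceeded female axotomy 3. Its log2FC was 2.57 (SE 0.50, padj = 0.00411) in males and, for females, 0.75 (SE 0.47, padj = 0.316). Ccl11 stood at 40.1, 22.8 and 47.8 TPM in male axotomy and 11.8 and 13.2 TPM in male sham, and at 22.5, 20.3 and 18.2 TPM in female axotomy and 19.5 and 15.4 TPM in female sham libraries. Male axotomy 2 was closer to the female axotomy libraries than to the other male axotomy libraries, and the female groups overlapped. The log2FC of Ccl11 was 1.78 (SE 0.31, padj = 0.00277) in males and, for females, 0.34 (SE 0.30, padj = 0.487).

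Ccl24 (eotaxin-2), the remaining gene of this group, moved the other way in females. It had few reads, with estimated counts of 17, 16 and 16 in male axotomy and 6 and 6 in male sham libraries, and 2, 1 and 5 in female axotomy and 12 and 6 in female sham libraries. Counts were higher in axotomy than in sham libraries of males and lower in those of females. Ccl24 fell in females (log2FC −2.39, SE 0.80, padj = 0.0748), and the male value was 1.58 (SE 0.71, padj = 0.112). Its reads are split between transcripts of 1295 and 561 bases, and the female call was lost without either female sham library or female axotomy 1 or 2, and with a replicate block (padj = 0.146). Leaving out female sham 2 ended the female call of Ccl7 (padj = 0.111), and the female call of Ccl2 was lost without any of 6 libraries (female axotomy 1 or 2, or any sham library), with padj of 0.109 to 0.425, and with no filter on low counts (padj = 0.204).

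**Figure D3:**
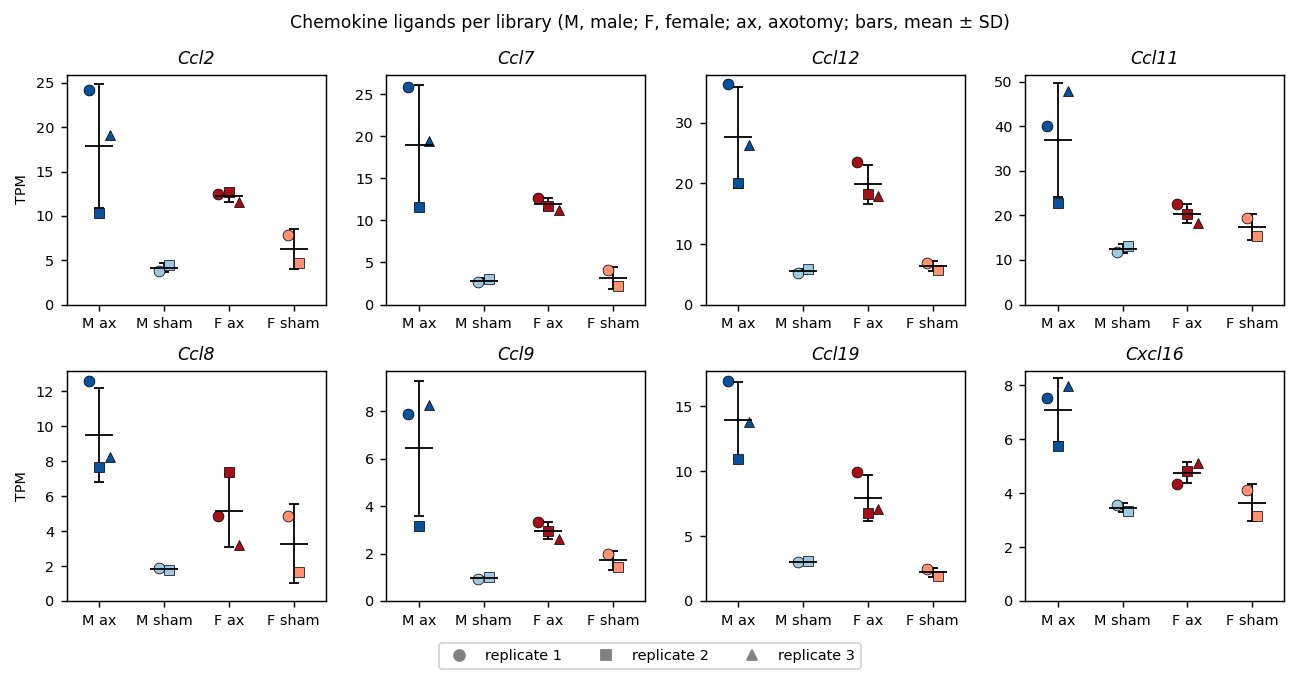
TPM of 8 chemokine ligands in each library, with group means and SDs (bars; 3 axotomy and 2 sham libraries per sex, M male, F female, ax axotomy). Male axotomy libraries lie above male sham libraries for all 8 genes, and male axotomy 2 is the lowest male axotomy library for each.

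All 3 macrophage inflammatory CC ligands with enough reads were upregulated in males and none in females (median log2FC 2.09 in males and 0.14 in females). Ccl9, which binds Ccr1 and is made by macrophages and other myeloid cells, stood at 7.904, 3.17 and 8.26 TPM in male axotomy and 0.925 and 0.999 TPM in male sham, and at 3.33, 2.95 and 2.63 TPM in female axotomy and 1.98 and 1.44 TPM in female sham libraries. Neither sex showed an overlap of axotomy and sham, and male axotomy 2 stood just below female axotomy 1. Ccl9 rose 7.83-fold in males (log2FC 2.97, SE 0.43, padj = 0.00145), and in females its log2FC was 0.92 (SE 0.39, padj = 0.154). Ccl6, another Ccr1 ligand of mouse myeloid cells, stood at 7.58, 4.35 and 5.87 TPM in male axotomy and 1.53 and 3.07 TPM in male sham, and at 3.89, 3.97 and 3.01 TPM in female axotomy and 3.86 and 3.27 TPM in female sham libraries. Male groups were apart and female groups overlapped, and the log2FC was 1.59 (SE 0.34, padj = 0.00605) in males and, for females, 0.14 (SE 0.32, padj = 0.809).

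Ccl5 (RANTES), a product of T cells and NK cells that binds Ccr1, was present at low levels. It stood at 3.53, 1.13 and 3.05 TPM in male axotomy and 0.349 and 1.05 TPM in male sham, and at 1.36, 0.8602 and 0.908 TPM in female axotomy and 2.16 and 1.04 TPM in female sham libraries. In males the lowest axotomy library was barely above the highest sham library, and in females the groups overlapped with the highest value in sham 1. The log2FC was 2.09 (SE 0.65, padj = 0.0304) in males and, for females, −0.49 (SE 0.61, padj = 0.642), and without male sham 1 the male call was lost (padj = 0.221). Ccl3 and Ccl4, macrophage inflammatory proteins of the same group, had too few reads to test. Ccl3 had 3, 1 and 2 estimated counts in male axotomy and 6 and 5 in male sham, and 4, 1 and 2 in female axotomy and 5 and 3 in female sham libraries. Ccl4 had 4, 6 and 3 in male axotomy and 0 and 0 in male sham, and 2, 6 and 4 in female axotomy and 3 and 1 in female sham libraries. T and NK cell markers (7 genes) summed to 3.27 to 4.48 TPM in male axotomy and 2.11 to 2.12 TPM in male sham, and to 2.35 to 3.66 TPM in female axotomy and 2.55 to 4.18 TPM in female sham libraries.

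Lymphoid and barrier CC ligands comprised 12 members, of which 9 were tested. Males had 4 upregulated genes and females 1, where the female count is near the share of all genes (10.5%). Ccl19, which guides dendritic cells and naive T cells through Ccr7, stood at 16.96, 10.97 and 13.8 TPM in male axotomy and 2.97 and 3.08 TPM in male sham, and at 9.96, 6.77 and 7.08 TPM in female axotomy and 2.43 and 1.95 TPM in female sham libraries. All axotomy libraries of both sexes exceeded all sham libraries. Ccl19 rose 5.304-fold in males (log2FC 2.41, SE 0.29, padj = 0.00065) and 3.96-fold in females (log2FC 1.99, SE 0.29, padj = 0.00284).

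Ccl21a and Ccl21d encode the other Ccr7 ligand. Ccl21a stood at 6.85, 5.73 and 5.503 TPM in male axotomy and 3.05 and 2.897 TPM in male sham, and at 4.63, 3.06 and 5.85 TPM in female axotomy and 3.57 and 3.52 TPM in female sham libraries. The male groups did not overlap, and female axotomy 2 lay below both female sham libraries. For Ccl21d the levels were 15.6, 15.5 and 13.9 TPM in male axotomy and 11.04 and 10.7 TPM in male sham, and 15.1, 13.4 and 13.1 TPM in female axotomy and 13.2 and 13.1 TPM in female sham libraries. Here too the male groups were separate and the female groups overlapped. The log2FC was 1.23 (SE 0.25, padj = 0.0046) for Ccl21a and 0.67 (SE 0.12, padj = 0.00326) for Ccl21d in males, and 0.47 (SE 0.24, padj = 0.229) and 0.20 (SE 0.12, padj = 0.313) in females. The division of reads between the copies bears on each of these values.

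Ccl17, a Ccr4 ligand made by dendritic cells and macrophages, rested on few reads. It had 83, 12 and 10 estimated counts in male axotomy and 2 and 0 in male sham libraries, and 12, 2 and 1 in female axotomy and 18 and 5 in female sham libraries. Most of its reads came from male axotomy 1, and the next highest library was female sham 1. Relative to depth, the 105 counts of male axotomy were 32.2 times the 2 counts of male sham, with an exact 95% interval of 8.69 to 269 that covers counting error only. The edgeR call in males (padj = 0.038) was lost without male axotomy 1 (padj = 0.11) or either male sham library (padj = 0.127 and 0.199), and with no filter on low counts (padj = 0.175). Dendritic cell markers (5 genes, 4 of them upregulated and 1 downregulated in males and 2 upregulated in females) summed to 22.3 to 29.4 TPM in male axotomy and 22.7 to 22.9 TPM in male sham, and to 26.9 to 27.3 TPM in female axotomy and 20.8 to 23.6 TPM in female sham libraries.

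The other tested members of this group were not called in either sex. Ccl27a, known as a skin chemokine that binds Ccr10, stood at 93.7, 86.7 and 89.1 TPM in male axotomy and 88.1 and 101 TPM in male sham, and at 92.8, 99.6 and 87.5 TPM in female axotomy and 93.2 and 85.3 TPM in female sham libraries. Axotomy and sham overlapped in both sexes, with a log2FC of 0.13 (SE 0.11, padj = 0.396) in males and, for females, 0.18 (SE 0.11, padj = 0.316). Ccl28, the other Ccr10 ligand, stood at 0.823, 1.25 and 1.21 TPM in male axotomy and 1.05 and 1.01 TPM in male sham, and at 0.7197, 0.862 and 0.7798 TPM in female axotomy and 1.63 and 0.806 TPM in female sham libraries. Its log2FC was 0.29 (SE 0.28, padj = 0.471) in males and, for females, −0.52 (SE 0.28, padj = 0.252). Ccl22, Ccl25 and Ccl1 had log2FC values of 0.86, 0.27 and −0.31 in males and −0.85, 0.11 and 0.30 in females, with padj of 0.19 or more.

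Among CXC ligands with the ELR motif, which attract neutrophils through Cxcr2, Cxcl1 and Cxcl5 were tested. Cxcl1 stood at 1.39, 0.628 and 0.983 TPM in male axotomy and 0.323 and 0.394 TPM in male sham, and at 1.02, 1.11 and 0.891 TPM in female axotomy and 0.589 and 0.892 TPM in female sham libraries. Male and female axotomy libraries overlapped, male sham libraries were the lowest, and female axotomy 3 lay just below female sham 2. Cxcl1 rose in males (log2FC 1.67, SE 0.45, padj = 0.0156), with a female log2FC of 0.56 (SE 0.40, padj = 0.388), and the male call was lost without male sham 1 (padj = 0.115). Cxcl5 stood at 0.335, 0.315 and 0.413 TPM in male axotomy and 0.438 and 0.318 TPM in male sham, and at 0.251, 0.247 and 0.197 TPM in female axotomy and 0.222 and 0.426 TPM in female sham libraries, and was called in neither sex (male log2FC 0.11, padj = 0.883; female log2FC −0.35, padj = 0.667). Cxcl2 was not tested, with 3, 6 and 12 estimated counts in male axotomy and 1 and 2 in male sham, and 2, 3 and 5 in female axotomy and 2 and 2 in female sham libraries.

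The interferon-inducible CXC ligands attract activated T cells through Cxcr3. Cxcl9 stood at 3.12, 0.684 and 0.466 TPM in male axotomy and 0.231 and 0.258 TPM in male sham, and at 0.501, 0.558 and 0.626 TPM in female axotomy and 1.25 and 0.365 TPM in female sham libraries. Male axotomy 1 was the highest library, and female sham 1 exceeded all female axotomy libraries. The log2FC of Cxcl9 was 2.73 (SE 0.88, padj = 0.0382) in males and, for females, −0.44 (SE 0.80, padj = 0.765), with a male value of 1.41 without male axotomy 1 (padj = 0.0665), and the male call was lost without male sham 1 (padj = 0.198) or male sham 2 (padj = 0.178), and with no filter on low counts (padj = 0.164). Cxcl10 stood at 9.94, 3.23 and 4.75 TPM in male axotomy and 3.74 and 3.78 TPM in male sham, and at 4.67, 8.73 and 5.54 TPM in female axotomy and 5.39 and 2.42 TPM in female sham libraries. Its groups overlapped in both sexes, with a log2FC of 0.88 (SE 0.50, padj = 0.2) in males and, for females, 0.80 (SE 0.50, padj = 0.322). All reads of Cxcl11 were assigned to a transcript annotated as a polymorphic pseudogene, and it was called in neither sex (male log2FC 0.26, padj = 0.57; female log2FC 0.04, padj = 0.957).

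Of the remaining CXC ligands, all 4 tested members were upregulated in males, namely Cxcl12, Cxcl13, Cxcl14 and Cxcl16 (median log2FC 1.39 in males and 0.84 in females). Cxcl14, a conserved chemokine of epithelia and fibroblasts, stood at 1.01, 0.813 and 0.963 TPM in male axotomy and 0.243 and 0.361 TPM in male sham, and at 1.15, 0.866 and 0.843 TPM in female axotomy and 0.564 and 0.3399 TPM in female sham libraries. Axotomy libraries of the sexes overlapped each other and no sham library. Cxcl14 rose 3.55-fold in males (log2FC 1.83, SE 0.34, padj = 0.00316) and 2.28-fold in females (log2FC 1.19, SE 0.32, padj = 0.0356), and the female call was lost without female axotomy 1 (padj = 0.122) or female sham 2 (padj = 0.281). Cxcl16, a membrane-anchored ligand of Cxcr6 on macrophages, stood at 7.53, 5.75 and 7.98 TPM in male axotomy and 3.58 and 3.35 TPM in male sham, and at 4.33, 4.81 and 5.13 TPM in female axotomy and 4.12 and 3.17 TPM in female sham libraries. All axotomy libraries lay above all sham libraries in both sexes, with a log2FC of 1.24 (SE 0.20, padj = 0.00177) in males and, for females, 0.50 (SE 0.19, padj = 0.115).

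Cxcl12, which holds and recruits cells through Cxcr4, showed almost level values. It stood at 23.1, 20.4 and 21.5 TPM in male axotomy and 19.6 and 19.6 TPM in male sham, and at 21.2, 20.7 and 22.2 TPM in female axotomy and 15.8 and 19.2 TPM in female sham libraries. The gaps between axotomy and sham were small in both sexes. Cxcl12 was called in males (log2FC 0.35, SE 0.11, padj = 0.0272) and in females (log2FC 0.41, SE 0.11, padj = 0.0324). Both calls depended on the correction for transcript length, without which the male value turned to −0.19 (padj = 0.237) and the female value was 0.29 (padj = 0.133). Without male sham 1 or 2 the male call was lost (padj = 0.161 and 0.135), and without female axotomy 1 or female sham 1 the female call was lost (padj = 0.101 and 0.258).

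Cxcl13, the B cell attractant that binds Cxcr5, had 0.395, 0.694 and 0.6505 TPM in male axotomy and 0.232 and 0.2198 TPM in male sham, and 0.475, 0.259 and 0.347 TPM in female axotomy and 0 and 0.221 TPM in female sham libraries. Axotomy lay above sham in both sexes, with a log2FC of 1.54 (SE 0.65, padj = 0.091) in males and, for females, 1.87 (SE 0.78, padj = 0.142). The male call was lost without any of 6 libraries (female axotomy 2 or 3, male axotomy 2 or 3, or either male sham library), with DESeq2 (padj = 0.11), with upper quartile scaling (padj = 0.102) and with a replicate block (padj = 0.152). Its receptor Cxcr5 was not tested, with 6, 15 and 8 estimated counts in male axotomy and 3 and 1 in male sham, and 1, 4 and 4 in female axotomy and 4 and 10 in female sham libraries.

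Transcript estimates were read for genes with several products, and differences between transcripts were not tested. Of the Ccl19 level, 81.8% came from a processed transcript with no annotated coding sequence (646 bases), at 11.7 ± 2.69 TPM in male axotomy and 2.26 ± 0.07 TPM in male sham, and 6.51 ± 1.33 TPM in female axotomy and 1.43 ± 0.64 TPM in female sham (SD, n = 3 axotomy and 2 sham libraries). The main coding transcript (745 bases) lay in the same order, at 1.78 ± 0.42 TPM in male axotomy and 0.675 ± 0.041 TPM in male sham, and 1.20 ± 0.32 TPM in female axotomy and 0.604 ± 0.164 TPM in female sham. For Cxcl12 the transcripts lay in opposite orders in males. The 5627-base transcript averaged 6.90 ± 2.39 TPM in male axotomy and 13.3 ± 1.24 TPM in male sham, whereas the 1878-base transcript averaged 11.1 ± 3.06 TPM in male axotomy and 3.96 ± 0.44 TPM in male sham. In females the 5627-base transcript averaged 9.26 ± 1.35 TPM in axotomy and 9.004 ± 3.01 TPM in sham, and the 1878-base transcript averaged 8.84 ± 0.66 TPM in axotomy and 6.12 ± 0.81 TPM in sham. A shorter transcript yields fewer reads per molecule, which is what the length correction for Cxcl12 adjusts.

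For Cxcl16, 43.8% of the level came from noncoding transcripts, and the coding transcript averaged 3.88 ± 0.80 TPM in male axotomy and 1.67 ± 0.27 TPM in male sham, but 2.60 ± 0.28 TPM in female axotomy and 2.61 ± 0.44 TPM in female sham. For Ccl25 and Ccl27a, 61.5% and 29.6% of the level came from noncoding transcripts. A 398-base noncoding transcript of Ccl9 (48.6 counts in all) had 2.76 and 2.19 TPM in male axotomy 1 and 3 and 0 elsewhere. The coding Ccl9 transcript stood at 5.15, 3.17 and 6.07 TPM in male axotomy and 0.925 and 0.999 TPM in male sham. A retained-intron transcript of Ccl6 had 2.69 TPM in male axotomy 1 and 0.498 TPM in male sham 2. The Ccl9 and Ccl6 gene values above include these transcripts.

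Among the 18 signaling receptors, 12 were tested, with 7 upregulated and 1 downregulated in males (median log2FC 0.92), and 1 upregulated and 2 downregulated in females (median log2FC 0.07). The female counts of this group are near the shares of all genes, 10.5% upregulated and 9.7% downregulated. Ccr2, the receptor of inflammatory monocytes for Ccl2, Ccl7 and Ccl12, stood at 4.99, 4.70 and 7.44 TPM in male axotomy and 2.68 and 2.64 TPM in male sham, and at 4.16, 3.48 and 3.92 TPM in female axotomy and 3.96 and 3.403 TPM in female sham libraries. The male groups were separate, with male axotomy 3 the highest, and the female groups overlapped between 3.40 and 4.16 TPM. Ccr2 rose 2.49-fold in males (log2FC 1.31, SE 0.22, padj = 0.00237), and its female log2FC was 0.18 (SE 0.22, padj = 0.62).

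Ccr1, shared by Ccl5, Ccl6 and Ccl9, stood at 2.05, 1.297 and 2.06 TPM in male axotomy and 0.632 and 0.813 TPM in male sham, and at 1.32, 1.17 and 1.02 TPM in female axotomy and 1.11 and 0.707 TPM in female sham libraries. The male groups were separate and the female groups overlapped, and the log2FC was 1.53 (SE 0.32, padj = 0.00523) in males and, for females, 0.48 (SE 0.31, padj = 0.34).

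Cx3cr1, which marks resident macrophages and microglia-like cells and binds the neuronal membrane chemokine Cx3cl1, stood at 2.49, 3.27 and 3.697 TPM in male axotomy and 1.89 and 1.72 TPM in male sham, and at 2.31, 1.71 and 1.63 TPM in female axotomy and 2.04 and 1.96 TPM in female sham libraries. Male axotomy libraries were the 3 highest of all 10, and the female groups overlapped. The log2FC was 1.01 (SE 0.21, padj = 0.0057) in males and, for females, 0.04 (SE 0.21, padj = 0.932). Cx3cl1 itself stood at 1.97, 2.95 and 1.97 TPM in male axotomy and 3.36 and 2.83 TPM in male sham, and at 1.799, 2.29 and 2.37 TPM in female axotomy and 2.22 and 2.82 TPM in female sham libraries. It was called in neither sex, with a log2FC of −0.24 (SE 0.18, padj = 0.323) in males and, for females, −0.11 (SE 0.18, padj = 0.718).

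Cxcr2, the neutrophil receptor for Cxcl1, stood at 2.59, 2.20 and 2.501 TPM in male axotomy and 1.45 and 1.72 TPM in male sham, and at 3.08, 2.07 and 2.03 TPM in female axotomy and 1.93 and 1.71 TPM in female sham libraries. Axotomy libraries exceeded sham libraries in both sexes, and the highest was female axotomy 1, the library with the highest neutrophil marker sum. The log2FC was 0.82 (SE 0.23, padj = 0.019) in males and, for females, 0.52 (SE 0.23, padj = 0.154), and without male sham 1 the male call was lost (padj = 0.153). Cxcr6, the Cxcl16 receptor of T and NK cells, had 28, 10 and 28 estimated counts in male axotomy and 6 and 3 in male sham, and 8, 14 and 12 in female axotomy and 14 and 9 in female sham libraries. Male axotomy 2, the deepest library, was the lowest of its group. The log2FC of Cxcr6 was 2.19 (SE 0.68, padj = 0.03) in males and, for females, 0.11 (SE 0.61, padj = 0.929), and the male call was lost without male sham 1 (padj = 0.103) or male sham 2 (padj = 0.185).

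Cxcr3, an X-linked gene for the receptor through which T cells sense Cxcl9 and Cxcl10, had 20, 17.2 and 17 estimated counts in male axotomy and 4 and 9 in male sham, and 8, 8 and 5 in female axotomy and 10 and 9 in female sham libraries. It rose in males (log2FC 1.301, SE 0.48, padj = 0.0567), a call lost without male axotomy 1 (padj = 0.136), male axotomy 3 (padj = 0.106) or male sham 1 (padj = 0.397) and larger without male sham 2 (log2FC 2.06, padj = 0.0681), and had a female log2FC of −0.29 (SE 0.49, padj = 0.738). The male call was also lost with DESeq2 (padj = 0.145), no filter on low counts (padj = 0.11) and a fit of the male libraries alone (padj = 0.106). Cxcr3 passed the filter on low counts through the male axotomy libraries, the group in which it is high. Cxcr4, the Cxcl12 receptor and the most abundant signaling receptor, stood at 14.4, 20.05 and 18.1 TPM in male axotomy and 20.7 and 20.8 TPM in male sham, and at 12.1, 14.3 and 12.8 TPM in female axotomy and 15.2 and 21.6 TPM in female sham libraries. Axotomy lay below sham in TPM in both sexes, but after normalization Cxcr4 was called in neither, at −0.04 (SE 0.15, padj = 0.854) in males and, for females, −0.38 (SE 0.15, padj = 0.127).

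Receptors that fell were Ccr10 in both sexes and Ccr7 in females. Ccr10, which binds Ccl27a and Ccl28, stood at 0.212, 0.342 and 0.376 TPM in male axotomy and 0.851 and 1.02 TPM in male sham, and at 0.362, 0.361 and 0.616 TPM in female axotomy and 0.837 and 1.14 TPM in female sham libraries. No axotomy library reached a sham library in either sex. Ccr10 fell to 0.382 of the sham level in males (log2FC −1.39, SE 0.32, padj = 0.00859) and to 0.491 in females (log2FC −1.03, SE 0.32, padj = 0.0586), and the female call was lost without female axotomy 1 or 2 or either female sham library (padj 0.117 to 0.355). Ccr7, the receptor of Ccl19 and Ccl21 on dendritic cells and lymphocytes, had 7, 18 and 14 estimated counts in male axotomy and 8 and 5 in male sham, and 6, 3 and 4 in female axotomy and 14 and 11 in female sham libraries. Ccr7 fell in females (log2FC −1.36, SE 0.49, padj = 0.0954), a call lost without any of 7 libraries (each female library and both male sham libraries), with no filter on low counts (padj = 0.194) or with a replicate block (padj = 0.113), and its male value was 0.82 (padj = 0.213). B cell markers (4 genes) summed to 2.44 to 3.19 TPM in female axotomy and 5.19 to 5.50 TPM in female sham libraries. In males they summed to 4.43 to 7.89 TPM in axotomy and 3.19 to 4.13 TPM in sham. Dendritic cell markers lay the other way in females, at 26.9 to 27.3 TPM in axotomy and 20.8 to 23.6 TPM in sham. T and NK cell markers overlapped in females (2.35 to 3.66 TPM in axotomy, 2.55 to 4.18 TPM in sham). The part of these cells in the Ccr7 change was not tested.

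Several receptors of responding ligands were too scarce to test. Ccr3, the receptor of Ccl11 and Ccl24, had 10, 10 and 4 estimated counts in male axotomy and 0 and 2 in male sham, and 2, 2 and 3 in female axotomy and 5 and 6 in female sham libraries. Ccr4, the receptor of Ccl17, had 4.1, 1 and 2 in male axotomy and 1 and 3.2 in male sham, and 0.8, 1.1 and 3 in female axotomy and 3 and 2.2 in female sham libraries. Ccr8, the receptor of Ccl8 in mouse, had 1 estimated count, in female axotomy 1. Ccr3 counts lay above sham in male axotomy and below sham in female axotomy libraries, and the groups overlapped for Ccr4. Ccr9 (male log2FC 0.64, padj = 0.393; female log2FC −0.96, padj = 0.296) and Xcr1 (male log2FC 0.34, padj = 0.369; female log2FC 0.21, padj = 0.68) were tested and called in neither sex.

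The 5 atypical receptors were all tested. Ackr1, the Duffy antigen receptor of venular endothelium and red cells, which binds many inflammatory CC and CXC chemokines, stood at 126, 167 and 104 TPM in male axotomy and 185 and 195 TPM in male sham, and at 147, 158 and 153 TPM in female axotomy and 159 and 176 TPM in female sham libraries. It fell in males (log2FC −0.33, SE 0.12, padj = 0.0514), with male axotomy 3 the lowest, and had a female log2FC of −0.01 (SE 0.12, padj = 0.964). The male call was lost (log2FC −0.22 without male axotomy 3) without male axotomy 1 or 3 or either male sham library (padj 0.101 to 0.237), and in a fit of the male libraries alone (padj = 0.119). Of 6 endothelial markers, 3 were downregulated in males, with sums of 32.2 to 38.8 TPM in male axotomy and 49.5 to 51.5 TPM in male sham libraries, and none was called in females (37.2 to 41.3 TPM in axotomy, 39.5 to 48.8 TPM in sham). Sensory neuron sums were lower after axotomy in males (7180 to 8940 against 9560 to 10003 TPM) and in females (8080 to 8260 against 8910 to 9480 TPM). Exons of Ackr1 also overlap those of Cadm3 on the same strand. The part of endothelium, neurons or Cadm3 reads in the Ackr1 change was not tested.

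Ackr3, which removes Cxcl12, stood at 6.09, 5.15 and 8.81 TPM in male axotomy and 4.14 and 4.397 TPM in male sham, and at 4.34, 4.69 and 4.56 TPM in female axotomy and 5.04 and 4.68 TPM in female sham libraries. The male groups were separate and the female groups overlapped, with a log2FC of 0.86 (SE 0.22, padj = 0.0129) in males and, for females, 0.02 (SE 0.22, padj = 0.974), and a male value of 0.57 without male axotomy 3 (padj = 0.0143). Ccrl2, which binds chemerin, stood at 0.678, 0.849 and 1.09 TPM in male axotomy and 0.594 and 0.681 TPM in male sham, and at 0.615, 0.673 and 0.615 TPM in female axotomy and 0.932 and 0.622 TPM in female sham libraries. Male axotomy 1 lay just below male sham 2. Ccrl2 was upregulated in males (log2FC 0.65, SE 0.28, padj = 0.0984), a call kept under 5 of 16 alternatives. It was lost without male axotomy 3, either male sham library or any of the 3 female axotomy libraries (padj 0.118 to 0.366), and with DESeq2 (padj = 0.166), no filter on low counts (padj = 0.168), upper quartile scaling (padj = 0.125), a replicate block (padj = 0.202) and a fit of the male libraries alone (padj = 0.154). Its female log2FC was −0.17 (SE 0.28, padj = 0.727). Ackr2 and Ackr4 were called in neither sex, with log2FC of 0.29 and 0.42 in males and −0.18 and 0.19 in females.

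**Figure D4:**
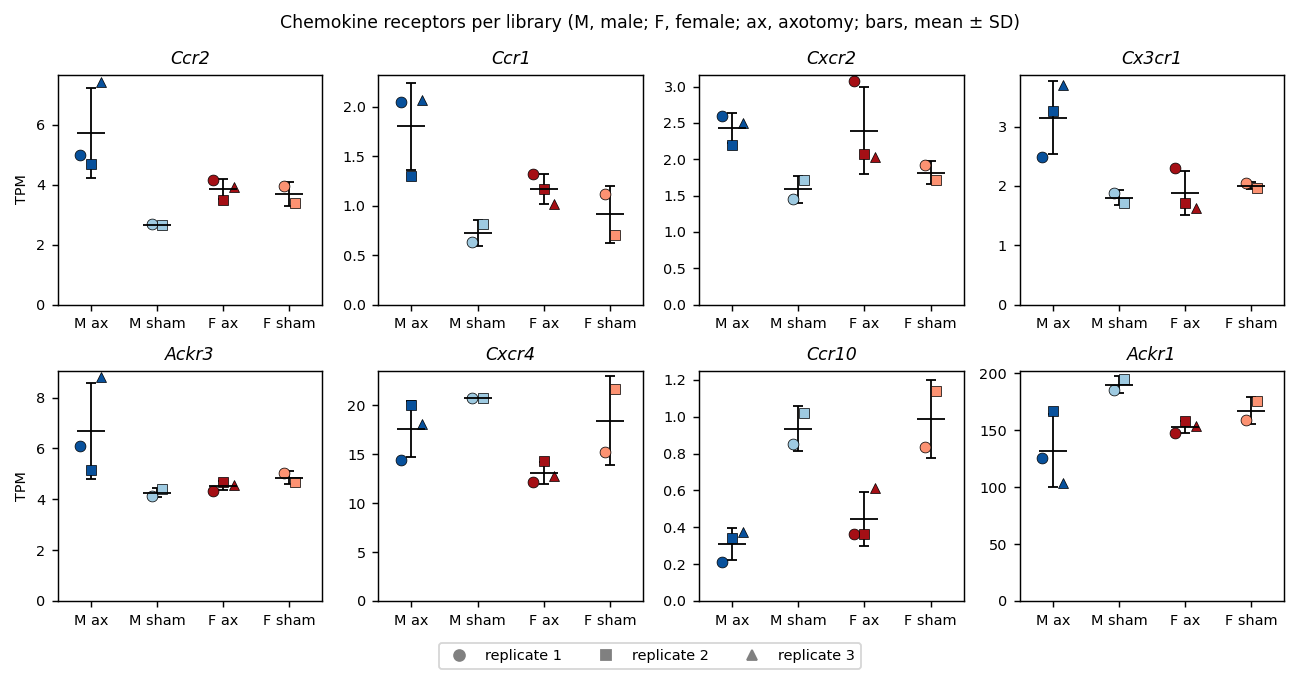
TPM of 8 chemokine receptors in each library, with group means and SDs (bars; 3 axotomy and 2 sham libraries per sex, M male, F female, ax axotomy). Ccr2, Ccr1, Cxcr2, Cx3cr1 and Ackr3 lie higher in male axotomy than in male sham libraries, and Ccr10 and Ackr1 lie lower.

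Members that neighbour each other on a chromosome (RefSeq order, GRCm38.p6) can be set side by side. On chromosome 11, Ccl2, Ccl7, Ccl11, Ccl12, Ccl8 and Ccl1 follow each other with no other coding gene between them. The first 5 of these were upregulated in males, with log2FC of 2.33, 2.97, 1.78, 2.54 and 2.57, and Ccl1 at the end of the row was not called (male log2FC −0.31, padj = 0.619). In females Ccl2, Ccl7 and Ccl12 of this row were called and Ccl11, which lies between Ccl7 and Ccl12, was not. Ccl5, Ccl9, Ccl6, Ccl3 and Ccl4 form a second row on chromosome 11, and its 3 tested genes were upregulated in males. On chromosome 9, Ccr3 and Ccr2 are adjacent, with Ccr2 upregulated in males and Ccr3 too low to test.

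The difference between the sexes was tested as the male log2FC minus the female log2FC. By edgeR none of the 45 members passed, where 0.072% of all genes had a larger male value and 0.0% a smaller one. At an unadjusted p under 0.05 there were 19 of 45 members, against 11.4% of all genes tested, and the median difference was 0.77 over the members and −0.0013 over all genes. Ccl17, Ccl24, Cxcr3 and Cxcr6 are among these 19, and their passing the filter on low counts rested on axotomy libraries. By DESeq2, 6 members passed (Ccl11, Ccl6, Ccl9, Ccr2, Cx3cr1 and Cxcl9), all with a larger male value, against 2.0% of all genes. The differences with the smallest edgeR p were those of Ccl24, at 3.96 (SE 1.07, padj = 0.251), and Ccr2, at 1.13 (SE 0.31, padj = 0.253). Next came Ccl9, at 2.05 (SE 0.56, padj = 0.256), Ccl11, at 1.44 (SE 0.42, padj = 0.264), and Cx3cr1, at 0.97 (SE 0.30, padj = 0.271). Ccl24 passed the filter on low counts through the male axotomy libraries, where it is high, so its difference is not independent of that filter. For the ligands upregulated in both sexes the differences were 1.26 for Ccl2, 0.94 for Ccl7, 0.77 for Ccl12, 0.42 for Ccl19, 0.64 for Cxcl14 and −0.06 for Cxcl12.

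These numbers turned on male axotomy 2. For the 27 genes upregulated in males, this library was the lowest of the 3 male axotomy libraries in 21, between the others in 5 and the highest in 1. The same count was not made over all genes tested, so this order cannot be called particular to chemokine genes. The summed level of the 27 was 263, 163 and 234 TPM in male axotomy and 82.8 and 87.9 TPM in male sham, and 163, 146 and 141 TPM in female axotomy and 111 and 93.5 TPM in female sham libraries. The 27 were chosen by a call on these same male libraries, so their sum describes them and is no test of injury or sex. Male axotomy 2 equalled female axotomy 1 in this sum. Without it, 15 members passed the test of the sex difference, 14 with a larger and 1 with a smaller male value, against 5.89% and 4.73% of all genes. The 14 were Ackr3, Ccl11, Ccl17, Ccl2, Ccl24, Ccl5, Ccl6, Ccl7, Ccl9, Ccr1, Ccr2, Cx3cr1, Cxcl16 and Cxcr6, and the other was Ackr1. Of the 14, Ccl17, Ccl24 and Cxcr6 did not reach the filter level in at least 2 sham libraries, so their passing the filter rested on axotomy libraries. Without any other single library none passed. Male axotomy 2 also had the lowest macrophage, mast cell, fibroblast, neutrophil, monocyte, T and NK cell and B cell marker sums of its group. The same held for lymphatic endothelial, satellite glia and Schwann cell markers, whereas its sensory neuron, endothelial and dendritic cell marker sums were the highest. The part of these cells in the sex difference was not tested.

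Males and females were compared directly within each state. In sham, none of the 45 members passed by edgeR, where 0.0288% of all genes were higher and 0.0144% lower in males, and none had an unadjusted p under 0.05, against 3.27% of all genes. None passed by DESeq2 (0.0577% of all genes higher and 0.0961% lower in males) or without male axotomy 2 (0.0289% higher and 0.0193% lower). The median male minus female difference in sham was −0.29 over the members and −0.0018 over all genes. Female sham 1 exceeded female sham 2 for 23 of the 27 genes upregulated in males, a count not made over all genes tested. After axotomy, 2 members were higher in males, where 1.3% of all genes were higher and 0.331% lower in males. They were Cx3cr1, with a log2 difference of 0.81 (SE 0.19, padj = 0.0913), and Ccl24, with 3.02 (SE 0.69, padj = 0.0907). The 3753-base transcript of Cx3cr1 overlapped between the sexes, at 2.49, 1.90 and 2.53 TPM in male axotomy and 2.26, 1.71 and 1.63 TPM in female axotomy libraries. Its 3156-base transcript stood at 0, 1.35 and 1.15 TPM in male axotomy, 0.821 and 0.570 TPM in male sham and 0 in every female library. Differences between transcripts were not tested. Ccl24 passed the filter on low counts through the male axotomy libraries, the group in which it is higher here. The median difference after axotomy was 0.64 over the members and 0.0007 over all genes, and 19 members had an unadjusted p under 0.05, against 15.3% of all genes tested. Ccl17, Ccl24 and Cxcr3 are among these 19, and their passing the filter rested on axotomy libraries.

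Both calls depended on single libraries, and both were lost in a fit of the axotomy libraries alone (padj = 0.21 for Cx3cr1 and 0.156 for Ccl24). The Cx3cr1 call was lost without male axotomy 1 or 3, female axotomy 2 or 3 or any sham library, and the Ccl24 call without any library other than male axotomy 2. By DESeq2, 9 members were higher in males after axotomy (Ackr3, Ccl11, Ccl19, Ccl6, Ccl9, Ccr2, Cx3cr1, Cxcl16 and Cxcr4) and none lower, against 3.5% and 2.3% of all genes. Without male axotomy 2, 18 members were higher and 1 (Ackr1) lower in males, against 8.94% and 8.45% of all genes. Ccl17, Ccl24, Cxcr3 and Cxcr6 are among these 18. With all libraries, their passing the filter on low counts rested on axotomy libraries, so the count is not independent of that filter. The comparisons between the sexes reuse the libraries of the comparisons within each sex. All edgeR comparisons also came from 1 fit with a shared estimate of the spread. Their values therefore do not support each other.

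**Figure D5:**
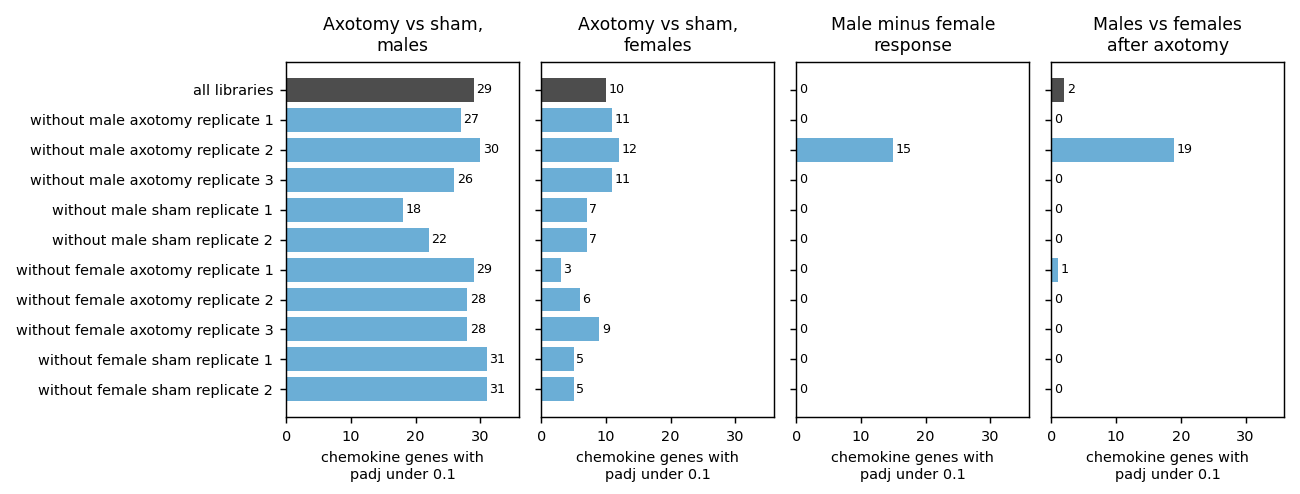
Number of chemokine genes with padj under 0.1 (edgeR) in 4 comparisons, as horizontal bars with their counts, with all 10 libraries (dark bars) and with each library left out in turn. The sex difference has 0 genes except without male axotomy 2, where it has 15, and the axotomy comparisons run between 18 and 31 genes in males and between 3 and 12 in females.

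Genes around the chemokine system were counted from lists, to be read beside the shares of all genes tested, 22.6% upregulated and 19.4% downregulated in males and 10.5% upregulated and 9.7% downregulated in females. Of 28 genes of chemokine receptor signaling, 11 were upregulated and 8 downregulated in males, and 3 were upregulated and 3 downregulated in females, where the female counts are close to the shares of all genes. Pik3cg, the leukocyte PI3-kinase driven by G proteins, had a log2FC of 1.28 (SE 0.20, padj = 0.00171) in males and, for females, 0.49 (SE 0.19, padj = 0.121), and Vav1, a Rac activator of blood cells, 1.28 (SE 0.27, padj = 0.00585) in males and, for females, 0.36 (SE 0.27, padj = 0.407). Rgs18, which shortens G protein signaling in platelets and myeloid cells, had 2.02 (SE 0.40, padj = 0.00423) in males and, for females, −0.25 (SE 0.38, padj = 0.707). Genes downregulated in males were Gnai1, an inhibitory G protein subunit, with a log2FC of −0.34 (SE 0.06, padj = 0.0035) in males and, for females, −0.47 (SE 0.06, padj = 0.00194), Plcb3, a phospholipase, at −0.85 (SE 0.14, padj = 0.00186) in males and, for females, −0.50 (SE 0.14, padj = 0.0368), and Grk2, a kinase that desensitizes receptors, at −0.57 (SE 0.09, padj = 0.00185) in males and, for females, −0.24 (SE 0.09, padj = 0.114).

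Inducers of chemokine genes had 15 of 20 members tested, with 8 upregulated in males and 5 in females and none downregulated. The cytokine Il6 rose in both sexes, with a log2FC of 3.46 (SE 0.32, padj = 0.000256) in males and, for females, 1.91 (SE 0.29, padj = 0.00339), as did Il1a, at 2.88 (SE 0.47, padj = 0.00205) in males and, for females, 3.63 (SE 0.48, padj = 0.00162), and Rela, the NF-kB subunit, at 0.36 (SE 0.08, padj = 0.0071) in males and, for females, 0.36 (SE 0.08, padj = 0.0172). Il1b had a log2FC of 2.76 (SE 0.54, padj = 0.0043) in males and, for females, 1.36 (SE 0.52, padj = 0.111). The NF-kB genes Nfkb1 and Nfkb2 had log2FC values of 0.34 (SE 0.08, padj = 0.0114) and 0.55 (SE 0.13, padj = 0.00885) in males and, for females, 0.10 (SE 0.08, padj = 0.479) and 0.21 (SE 0.13, padj = 0.315).

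Of 11 genes that cleave or display chemokines, 5 were upregulated and 1 downregulated in males, and 1 was upregulated in females. The heparan sulfate carrier Sdc1 rose in both sexes, with a log2FC of 0.94 (SE 0.19, padj = 0.00543) in males and, for females, 1.57 (SE 0.20, padj = 0.00147). Mmp2, a protease that trims Ccl7 and Cxcl12, had a log2FC of 1.47 (SE 0.27, padj = 0.00327) in males and, for females, 0.16 (SE 0.26, padj = 0.724), and Adam10, which sheds Cxcl16 and Cx3cl1, had one of 0.39 (SE 0.12, padj = 0.0242) in males and, for females, 0.02 (SE 0.11, padj = 0.929). The heparan sulfate carriers Sdc4 and Gpc1 had log2FC values of 0.56 (SE 0.10, padj = 0.00236) and −0.27 (SE 0.11, padj = 0.0843) in males and, for females, 0.19 (SE 0.10, padj = 0.221) and 0.10 (SE 0.11, padj = 0.585), and Adam17, which also sheds Cx3cl1, had one of 0.27 (SE 0.10, padj = 0.0653) in males and, for females, −0.05 (SE 0.10, padj = 0.786). Of 13 other chemoattractants and receptors, 7 were upregulated in males and 1 in females. The platelet chemokines Pf4 and Ppbp, whose symbols lie outside the naming rule, had log2FC values of 1.73 (SE 0.29, padj = 0.00231) and 2.39 (SE 0.52, padj = 0.00634) in males and, for females, 0.49 (SE 0.28, padj = 0.28) and 0.49 (SE 0.48, padj = 0.542). The complement receptors C5ar1 and C3ar1 had log2FC values of 1.65 (SE 0.30, padj = 0.00302) and 1.24 (SE 0.25, padj = 0.0045) in males and, for females, 0.52 (SE 0.29, padj = 0.263) and 0.18 (SE 0.24, padj = 0.659). Cd74, a receptor of the cytokine Mif and the invariant chain of class II antigen presentation, had a log2FC of 1.22 (SE 0.22, padj = 0.00304) in males and, for females, −0.14 (SE 0.21, padj = 0.706), and Rarres2, which encodes chemerin, one of 0.97 (SE 0.20, padj = 0.00604) in males and, for females, 0.18 (SE 0.20, padj = 0.605).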

How the data were processed

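RNA-seq of 10 mouse DRG libraries was used. Groups and replicate numbers come from the sample labels. Per the labels and the study's methods, the authors removed adapters and low-quality bases (Trimmomatic 0.39) and quantified Gencode M27 (GRCm39) transcripts in Salmon 1.3.0 with sequence and GC bias correction. The submitters' processing notes also name MultiQC 1.9 and DESeq2. The deposited values used are estimated counts per transcript, not normalized, and effective lengths. The deposited TPM values, which the authors' Salmon run scaled for length and to a fixed total per library, were summed per gene for levels.

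Estimated counts were summed per gene, rounded and tested in R 4.3.3 with edgeR 4.0.16 (robust quasi-likelihood F test, TMM, average effective length as offset, filterByExpr with minimum count 10), in 1 fit of all 10 libraries with 4 group means. Benjamini-Hochberg adjustment ran over all 20,836 genes tested, with a call at padj under 0.1. Each library is a pool of 2 mice, and p-values measure the spread between these pools. The authors' RUVseq and removeBatchEffect steps were left out, as the sources used here do not give their settings. Alternatives were DESeq2 1.42.0, no length offset, no filter, upper quartile scaling, a replicate block, the compared groups alone and each library left out in turn. The fit was tested on simulated data.

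A member is given per library if it passed in a comparison with a log2 change of at least 0.58, is among the 5 most abundant ligands or receptors, or pairs with such a member, and genes of other lists are named if called, at most 6 per list by smallest padj. The members and lists were chosen with earlier results of these data known. One tested member is counted in the totals and is not reported here.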

Additional observations from a re-analysis of the deposited data

Results flagged for a closer look

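Cxcr3, the X-linked receptor of Cxcl9 and Cxcl10, was looked at again because its TPM moved in opposite ways in the sexes. It stood at 0.293, 0.211 and 0.271 TPM in male axotomy and 0.0688 and 0.172 TPM in male sham, and at 0.134, 0.156 and 0.0903 TPM in female axotomy and 0.169 and 0.169 TPM in female sham libraries, so that every male axotomy library lay above and every female axotomy library below the sham libraries of its sex. The male response minus the female response was 1.59 (SE 0.68, padj = 0.419 by edgeR, where 0.072% of all genes passed in this direction), which does not pass the threshold. The gene had 107.2 estimated counts over all 10 libraries. It passed the filter on low counts through the male axotomy libraries, the group in which it is high, so its difference is not independent of that filter. Groups of 2 or 3 libraries were too small for a test of single outlying libraries.

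The receptor Ccr3 and the ligand Xcl1, both with too few reads for the fit, showed the same pattern, and the difference between the sexes was not tested for either. Ccr3 stood at 0.0915, 0.0793 and 0.0422 TPM in male axotomy and 0 and 0.0242 TPM in male sham, and at 0.0215, 0.0250 and 0.0345 TPM in female axotomy and 0.0548 and 0.0718 TPM in female sham libraries. The difference of means (axotomy minus sham) was higher in males than in females by 0.0952 TPM. Xcl1, which attracts cross-presenting dendritic cells, stood at 1.17, 0.381 and 0.315 TPM in male axotomy and 0.188 and 0.0995 TPM in male sham, and at 0, 0 and 0.0969 TPM in female axotomy and 0.181 and 0.205 TPM in female sham libraries. Its difference of means was higher in males by 0.638 TPM. These values rest on 44 estimated counts for Ccr3 and 33 for Xcl1 over all 10 libraries. Xcl1 was chosen for description after its values were seen.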

How the results depend on the processing

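Over 41 gene results, each recomputed under its alternatives, 547 values kept direction and call, 104 kept direction and lost the call, and 1 reversed: the male log2FC of Cxcl12 was −0.19 without the length offset. Calls held under every alternative for 17 of 29 in males, 2 of 10 in females (Ccl12 and Ccl19) and 0 of 2 between the sexes after axotomy. Leaving out 1 library at a time gave 18 to 31 calls in males (18 without male sham 1), 3 to 12 in females (3 without female axotomy 1, 6 without female axotomy 2, 5 without either female sham library), 0 to 15 for the sex difference and 0 to 19 after axotomy (15 and 19 without male axotomy 2), and 0 to 0 between sham groups. For the sex difference, against 0 calls, DESeq2 gave 6 and no filter on low counts 1. After axotomy, against 2 calls, DESeq2 gave 9, no filter 7 and a fit of the compared groups alone 0. The causes of these shifts were not tested. Same-numbered libraries did not deviate together (residual correlation −0.092 to 0.107 over 13 pairs), so the numbers were not taken as pairs. The fit with a replicate block gave 27 calls in males, 9 in females, 1 for the sex difference, 6 after axotomy and 0 in sham. With 2 sham libraries per sex, each sham library weighs heavily, and 16 members had too few reads to test.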
